A study of Mus musculus with 38 samples.

Results

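The 10 listed imprinted genes were followed across 11 peak lists: H19, Igf2, Kcnq1ot1, Cdkn1c, Dlk1, Peg3, Igf2r, Snrpn, Nnat and Mest. They were taken by name, and the GENCODE annotation vM1 of the mouse genome mm9 holds 37273 genes in all on chromosomes 1 to 19, X and Y. Each gene's window was its body with 100 kb on each side, and a peak belonged to a window when its summit lay inside. Of the 10 genes, 9 were annotated in vM1. Kcnq1ot1 was not, so its start was placed by the 300 bases of its RefSeq promoter (GRCm38.p6), which matched mm9 exactly and once, on the minus strand of chromosome 7 with the start at 150482452. Its window was 100 kb on each side of that start. The windows of H19 and Igf2 overlapped, as did those of Kcnq1ot1 and Cdkn1c, which left 8 joined windows of 2165 kb, in which a shared peak was counted once.

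The 11 lists, from 11 of the series' 38 samples, came from wild-type C57BL/6 mice. SATB1, a DNA-binding protein abundant in thymocytes, was immunoprecipitated from urea-purified chromatin, a preparation meant to keep only proteins crosslinked directly to DNA, in thymocytes, brain and skin with 2 replicates each, and from conventionally sonicated chromatin (standard ChIP-seq) in thymocytes with 2 replicates. CTCF, an insulator-binding protein, was profiled on urea-purified chromatin with 1 list in thymocytes and 1 in skin. The BUR map held base-unpairing regions, AT-rich stretches that unwind readily, bound by SATB1 in vitro on thymus DNA, also as 1 list. The age labels read P13 for thymocytes and skin and 5 and 6 weeks for the brain replicates, while the protocols give P13 for thymus and brain and P5 for skin, and the titles of thymocyte CTCF and standard replicate 1 say 6 weeks. Urea SATB1 used the antibody 1583D in every list, with 4 and 2 µl for thymocyte replicates 1 and 2. The titles of both brain lists carry 1 library code and differ in their cycle number, 10 and 12, and the codes of the thymocyte pair, like those of the skin pair, differ in their last letter only. The labels do not say whether such a pair came from separate animals, so every SD of 2 urea replicates below may measure technical spread alone. Standard replicate 1 used the antibody ab109122 with 15 s of sonication and replicate 2 used 1583D with 150 s, so antibody and sonication cannot be told apart from the replicate there.

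The lists differed in size, from 10619 peaks (skin urea SATB1 replicate 2) to 117958 (brain urea SATB1 replicate 1) on these chromosomes, with 232310 BURs. They hold no read counts, so the depth behind a peak is unknown, and fold enrichment (FE), the peak caller's ratio of signal to local background at the summit, is not scaled between lists. Of 57 regions covered by all 11 lists in the genome, 0 lay in the windows.

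Imprinted genes are expressed from one parental chromosome. The choice is set by control regions that are methylated in one germ line, and at H19 and Igf2 CTCF binds the unmethylated maternal control region and insulates Igf2 from enhancers beyond H19, while at Kcnq1ot1 and Airn a long noncoding RNA started within the control region silences its neighbours in cis. These peak lists do not separate the parental alleles, so a peak can come from either or both.

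CTCF and urea SATB1 occupied mostly separate sites at these genes. The 8 joined windows held 30 CTCF peaks in thymocytes and 41 in skin, and 16 and 16 urea SATB1 peaks in the thymocyte replicates, 53 and 50 in brain and 7 and 7 in skin. Thymocyte urea SATB1 overlapped 0 of 30 thymocyte CTCF peaks in replicate 1, which allows a share of up to 10.0% (3 counts of the total; the exact 95% binomial interval ends at 11.6%), and 1 of 30 in replicate 2 (3.33%, exact 95% binomial interval 0.0844 to 17.2%), a mean of 1.67% ± 2.36 (SD, n = 2). Over all thymocyte CTCF peaks the shares were 1.22% and 1.17%. Skin urea SATB1 overlapped 2 and 1 of the 41 skin CTCF peaks (4.88% and 2.44%, mean 3.66% ± 1.72, SD, n = 2), beside 4.0% and 3.61% of all skin CTCF peaks. Both windows' shares thus lay within the counting error of the whole-list shares. The intervals cover counting error only and treat neighbouring peaks as independent.

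Standard SATB1 met CTCF far more often than urea SATB1 did in the same thymocyte windows. It overlapped 11 of 30 thymocyte CTCF peaks in replicate 1 (36.7%, interval 19.9 to 56.1%) and 6 of 30 in replicate 2 (20.0%, interval 7.71 to 38.6%), a mean of 28.3% ± 11.8 (SD, n = 2). Both standard values lay above both urea values. Over all thymocyte CTCF peaks the standard shares were 52.8% and 23.8%, so the windows did not exceed the rest of the genome in either replicate. With 2 lists against 2 the smallest two-sided p that an exact permutation test can give is 0.333, and no p is given for such orders. Between cell types CTCF was largely shared, with 27 of 30 thymocyte peaks overlapped by a skin peak (90.0%, interval 73.5 to 97.9%), beside 83.5% of the whole list, while the same 27 skin peaks were 65.9% of the 41 in skin.

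**Figure D1:**
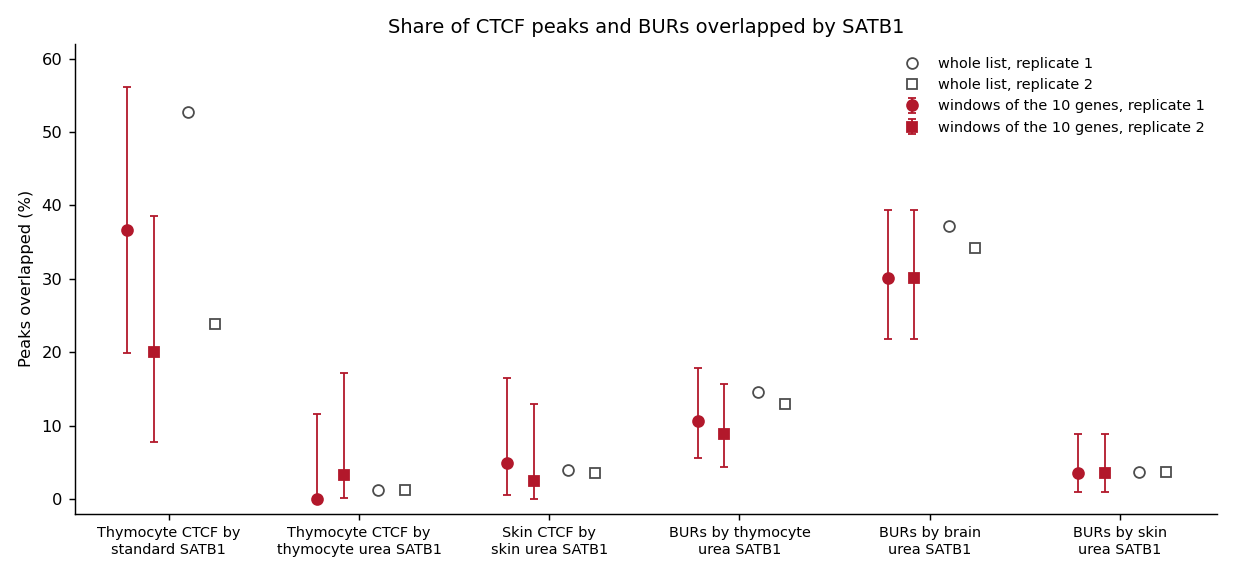
The y axis gives the percentage of CTCF peaks or BURs overlapped by SATB1, filled for the windows of the 10 genes with exact 95% binomial intervals and open for the whole list, with circles for replicate 1 and squares for replicate 2. Thymocyte CTCF was met by standard SATB1 at 36.7% and 20.0% and by urea SATB1 at 0% and 3.33%, and BURs were bound most often in brain (30.1% in both replicates).

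The share of urea SATB1 peaks at these genes that lay on a BUR was below that over the whole list in every urea list. In thymocytes this was so for 12 and 10 of 16 peaks, beside 75.8% and 77.6% of the whole lists. In brain it was 32 of 53 (60.4%) and 33 of 50 (66.0%), beside 73.0% and 72.8%, and in skin 4 of 7 in each replicate (57.1%), beside 78.5% and 79.6%. The standard lists had 2 of 40 (5.0%) and 0 of 23, beside 3.51% and 4.7% of the whole lists, and 0 of 23 allows a share of up to 13.0% by the 3-count limit and up to 14.8% by the exact interval. Every thymocyte urea peak of replicate 1, 16 of 16, and 14 of 16 of replicate 2 (87.5%) overlapped a peak of each brain replicate, beside 92.6% and 92.3% of the whole lists against brain replicate 1.

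Of the 113 BURs in the windows, urea SATB1 bound 30.1% in both brain replicates, 10.6% and 8.85% in the thymocyte replicates (mean 9.73% ± 1.25, SD, n = 2) and 3.54% in both skin replicates. The replicates of the 3 tissues did not overlap. The whole-list means were 35.7%, 13.8% and 3.67% of all BURs, the same order. List size moves with that order, and when each list was limited to its 10619 strongest peaks by −log10 q the shares were 4.42% and 3.54% in brain, 3.54% and 4.42% in thymocytes and 3.54% in both skin replicates. Over all BURs this setting gave 4.59% and 4.56% in brain, 4.25% and 4.24% in thymocytes and 3.61% and 3.64% in skin. Equal list sizes limit how far such shares can differ. With 4 or 5 of 113 BURs bound per list, the windows cannot show whether an order of tissues remains. The Snrpn window held 50 of the 113 BURs. Without it 25.4% of 63 BURs were bound in both brain replicates, 12.7% and 9.52% in thymocytes and 3.17% in both skin replicates.

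**Figure D2:**
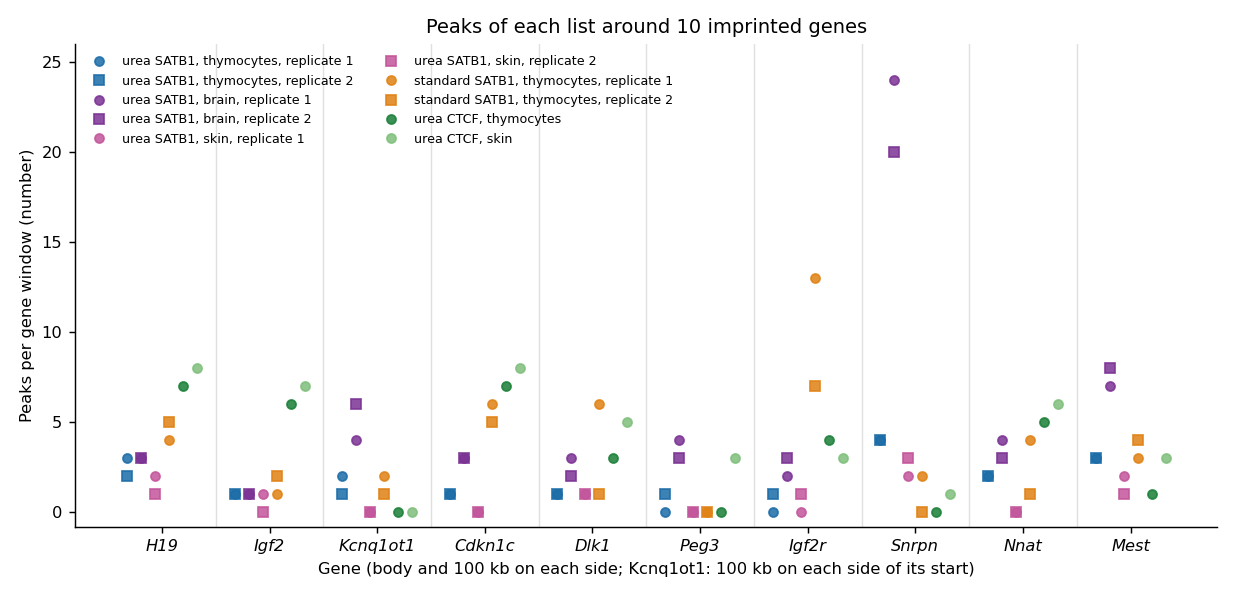
The y axis gives the number of peaks in the window of each gene on the x axis, with colours for the assay and cell type and circles and squares for replicates 1 and 2. Brain urea SATB1 stood at 24 and 20 at Snrpn, standard SATB1 at 13 and 7 at Igf2r, and CTCF between 6 and 8 at H19, Igf2 and Cdkn1c.

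Counts per gene were set beside those over all 37273 annotated genes, whose windows overlap one another and are not independent. The shares of all genes are for the main setting only, with 100 kb flanks, whole lists and both replicates. Gene counts under other settings have no such share beside them. The median gene among the 10 had 3.5 thymocyte CTCF peaks (range 0 to 7), beside 3.0 over all genes, and 3.5 and 1.5 standard SATB1 peaks, beside 6.0 and 3.0. It had 1.5 and 1.0 thymocyte urea peaks, beside 2.0 and 2.0, and 8.0 BURs, beside 11.0. A thymocyte CTCF peak overlapped by both standard replicates stood in the windows of H19, Dlk1, Igf2r and Mest, 4 of 10 genes, where 43.7% of all genes had one, and with replicate 1 of standard SATB1 alone the count was 7. A thymocyte CTCF peak overlapped by a thymocyte urea SATB1 replicate was found at Mest, 1 of 10, where 2.65% of all genes had one, and it rested on replicate 2, without which the count was 0. Mest was also the 1 gene of 10 with a skin CTCF peak overlapped by skin urea SATB1, a call made for 11.9% of all genes. None of the counts in the main setting separated the imprinted genes from the background, and a count of 1 cannot do so.

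Thymocyte CTCF peaks outnumbered the urea SATB1 peaks of both replicates at 6 of 10 genes (46.6% of all genes), namely H19, Igf2, Cdkn1c, Dlk1, Igf2r and Nnat. In skin this held at 8 of 10 genes (74.9% of all genes), with Kcnq1ot1 and Snrpn as the exceptions. Both standard replicates outnumbered both urea replicates in thymocytes at H19, Cdkn1c and Igf2r, 3 of 10 genes, beside 50.0% of all genes, and with either standard replicate alone the count was 5. Urea SATB1 counts were ordered brain over thymocytes over skin, with no overlap of replicates, at Kcnq1ot1, Cdkn1c, Snrpn, Nnat and Mest, 5 of 10, beside 48.6% of all genes. With lists of equal size this order held at 0 of 10, with no share of all genes for that setting. A further list of 41 imprinted genes, of which 40 were annotated, gave the same 7 calls for 21, 2, 6, 21, 35, 22 and 22 of the 40 in the order of this text. Of the 40, 12 shared window sequence with the 10 genes, so peaks recur between the lists, and for the other 28 the counts were 16, 1, 4, 13, 25, 15 and 15.

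At the H19 and Igf2 locus on chromosome 7, CTCF marked the control region upstream of H19. H19 (ENSMUSG00000000031.9, 149761434 to 149764048, minus strand) is a maternally expressed noncoding RNA, and Igf2 (ENSMUSG00000048583.9, 149836673 to 149852721, minus strand) encodes a paternally expressed growth factor. In the 5 kb upstream of the H19 start the thymocyte list had 2 CTCF peaks, at 149766568 to 149766765 (FE 5.93) and 149767653 to 149768004 (FE 6.68), and the skin list had 1, over the farther peak (FE 4.28). The standard SATB1 replicates each had 1 peak there, on different CTCF peaks. Replicate 1 lay on the nearer one (FE 4.31, −log10 q 4.88) and replicate 2 on the farther one (FE 5.02, −log10 q 5.35). Both standard peaks were weak, below the median FE of their lists (6.35 and 6.13). The nearer one is lost when a −log10 q of at least 5 is required. The 2 thymocyte CTCF peaks also lay below the median FE of their list, 7.83. No urea SATB1 peak of any of the 6 lists and no BUR lay in these 5 kb. A 12-base CTCF core pattern, searched on both strands, occurred 3 times in the region, and the 2 CTCF peaks held 1 match each. In 300 bases around the summit it occurs in 40.1% of all thymocyte CTCF peaks, 29.8% of skin CTCF peaks and 0.214% of BURs. The stretches around the 2 matches are shown because they are the sites where CTCF and standard SATB1 met in the control region, plus strand of mm9, with the match in capitals:
nearer H19 upstream peak, chr7:149766611-149766742: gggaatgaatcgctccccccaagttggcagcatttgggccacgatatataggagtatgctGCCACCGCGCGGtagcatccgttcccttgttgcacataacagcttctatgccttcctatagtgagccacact
farther H19 upstream peak, chr7:149767881-149768012: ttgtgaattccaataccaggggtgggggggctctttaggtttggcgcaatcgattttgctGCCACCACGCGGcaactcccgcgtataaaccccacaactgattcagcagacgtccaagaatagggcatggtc

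The 2 stretches had 47.0% and 46.2% A and T. With these control region peaks included, the whole H19 window had 7 CTCF peaks in thymocytes and 8 in skin, and the whole Igf2 window 6 and 7, with many in common. The strongest thymocyte CTCF peak of the joined window lay at 149900512 to 149901118 (site ends), 15.4 kb upstream of Ins2, the neighbouring insulin gene, with an FE of 10.6 in thymocytes and 8.07 in skin and no SATB1 peak. Near the start of Mrpl23, a mitochondrial ribosomal protein gene, CTCF in both cell types and both standard replicates shared a site at 149718700 to 149719527, with FE of 9.96 and 9.45 for CTCF and 11.9 and 8.08 for standard SATB1. That site was named after its values were seen.

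The strongest urea SATB1 site of all windows lay in the same locus, away from CTCF. It spanned 149688424 to 149689162, over an exon of Tnnt3, a muscle troponin gene, 75.2 kb downstream of the H19 start. Its FE was 31.9 and 31.2 in thymocytes (mean 31.5 ± 0.506, SD, n = 2), 26.9 and 27.2 in brain (27.1 ± 0.187) and 23.2 and 24.9 in skin (24.0 ± 1.2), with 18.3 on the BUR map. The thymocyte and brain values exceeded the 99th percentiles of their lists (28.5, 30.0, 23.1 and 23.4). No CTCF or standard SATB1 peak touched it, and the nearest thymocyte CTCF and standard peaks lay 5.28 and 20.5 kb away. The central 200 bases were 65.5% A and T and held a stretch of 35 bases with no G, in capitals, beside a median longest stretch lacking G or lacking C of 40.0 bases in 300 for all BURs and 23.0 for thymocyte CTCF peaks:
Tnnt3 urea SATB1 site, chr7:149688734-149688933: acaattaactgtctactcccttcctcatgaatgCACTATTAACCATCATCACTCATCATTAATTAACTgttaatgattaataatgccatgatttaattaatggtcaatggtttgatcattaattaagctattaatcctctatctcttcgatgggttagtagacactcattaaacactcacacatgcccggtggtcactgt

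Between H19 and Igf2 a second urea SATB1 site at 149809349 to 149809868 had FE of 13.5 and 12.4 in thymocytes, 11.3 and 6.19 in brain and 4.61 in skin replicate 1, and it lay on no BUR. Skin replicate 2 had no peak there. Standard replicate 2 alone had a peak at 149793147 to 149793460 with an FE of 50.6, above the 99th percentile of its list (28.5), where no other list had one. Both sites were named after their values were seen.

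**Figure D3:**
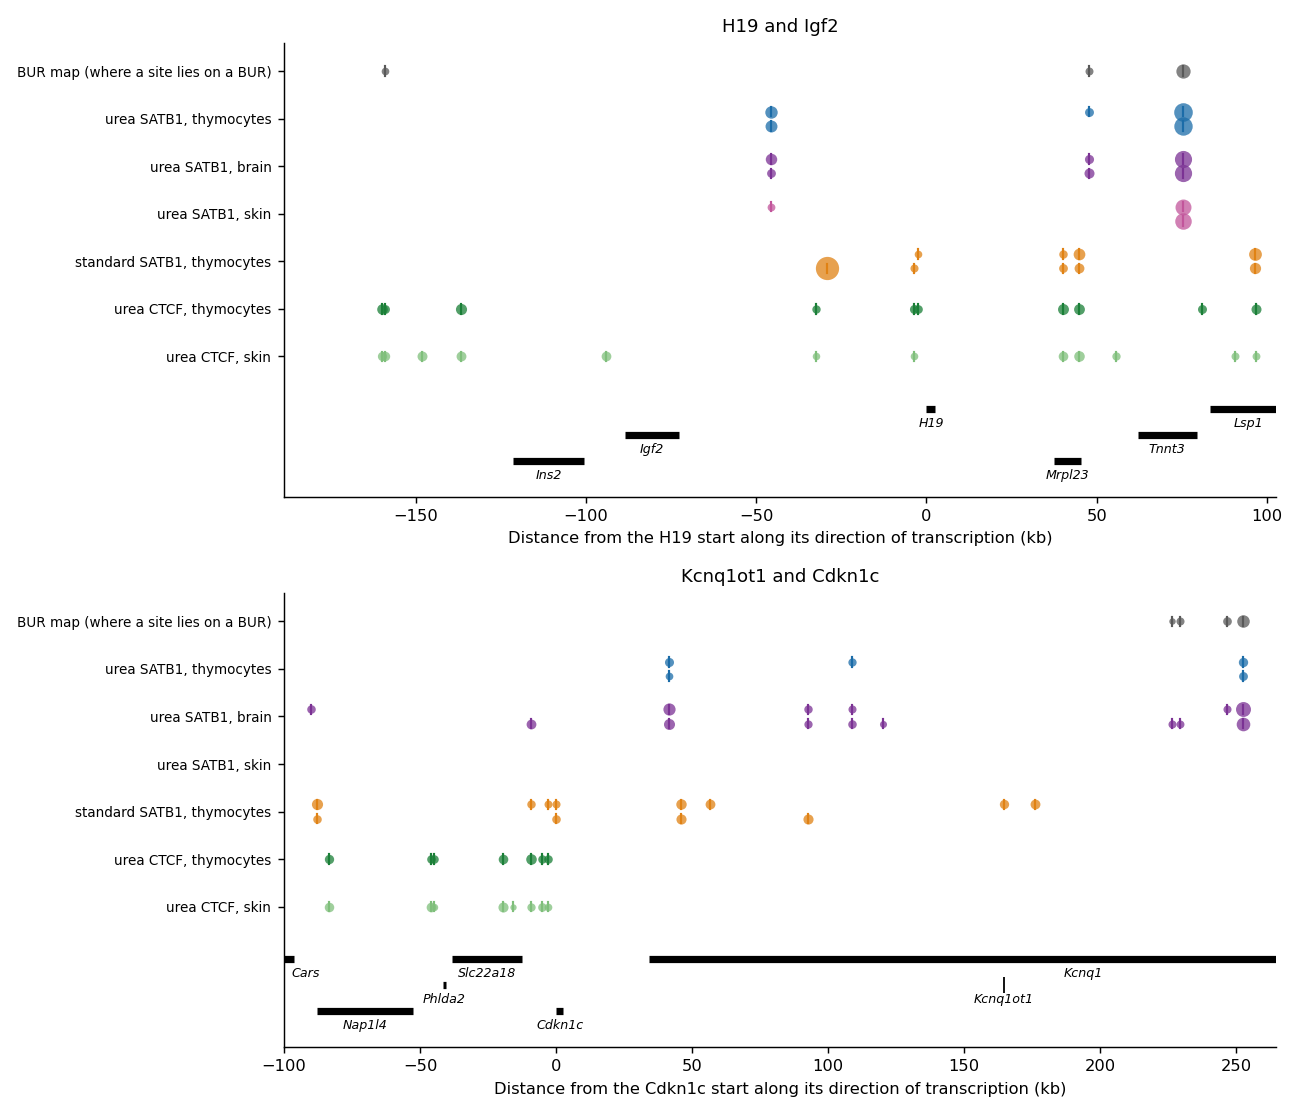
The x axis gives the distance in kb from the H19 start (top) or the Cdkn1c start (bottom) in the direction of transcription, rows are the lists with replicate 1 above replicate 2, dot area grows with fold enrichment, and black bars are genes, with a tick for the Kcnq1ot1 start. CTCF clustered upstream of Cdkn1c and around H19, and the strongest urea SATB1 site lay 75.2 kb downstream of the H19 start.

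At the neighbouring Kcnq1ot1 and Cdkn1c domain the assays were spread unevenly. Cdkn1c (ENSMUSG00000037664.6, chromosome 7, 150644255 to 150646955, minus strand) encodes a maternally expressed inhibitor of cyclin-dependent kinases, and Kcnq1ot1 is the paternally expressed antisense RNA within Kcnq1, a potassium channel gene, that silences it. The Kcnq1ot1 window had 0 CTCF peaks in either cell type, while the Cdkn1c window had 7 in thymocytes and 8 in skin. Peg3 and Snrpn also had 0 thymocyte CTCF peaks, and the lower quartiles over all genes were 0 in thymocytes and 1.0 in skin. Urea SATB1 peaks numbered 2 and 1 in thymocytes and 4 and 6 in brain around the Kcnq1ot1 start, and 1 and 1 and 3 and 3 around Cdkn1c, with 0 in both skin replicates at both genes. Urea SATB1 thus lay around both genes, and CTCF around Cdkn1c.

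Within 2 kb of the Kcnq1ot1 start the only peak of any list was standard SATB1 replicate 1 at 150482280 to 150482695 (FE 7.08), which covered the start itself. The other replicate had none. The start of Cdkn1c carried standard SATB1 in both replicates, at 150646711 to 150647173 with FE of 5.01 and 5.8 and 35 CpG dinucleotides in 300 bases, a site named after its values were seen. The strongest thymocyte CTCF site of the domain spanned 150655852 to 150656631, 3.54 kb upstream of Slc22a18, an imprinted transporter gene, with CTCF FE of 9.46 in thymocytes and 5.33 in skin and a standard replicate 1 peak of 5.62. A brain urea peak of replicate 2 (FE 7.95) overlapped the skin CTCF peak at its edge but not the thymocyte one. Replicate 1 of brain had no peak there.

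The strongest urea SATB1 site of the domain lay at 150394305 to 150394951 within an intron of Kcnq1, 87.8 kb downstream of the Kcnq1ot1 start. Its FE was 7.11 and 6.24 in thymocytes (6.68 ± 0.617, SD, n = 2) and 20.2 and 16.5 in brain (18.3 ± 2.59), with 13.8 on the BUR map and no skin peak. The nearest thymocyte CTCF peak was 54.3 kb away. The central 200 bases were 80.5% A and T, with the longest stretch lacking G, 46 bases, in capitals, shown because brain and thymocytes stood furthest apart at this site among the strongest sites:
Kcnq1 intron urea SATB1 site, chr7:150394529-150394728: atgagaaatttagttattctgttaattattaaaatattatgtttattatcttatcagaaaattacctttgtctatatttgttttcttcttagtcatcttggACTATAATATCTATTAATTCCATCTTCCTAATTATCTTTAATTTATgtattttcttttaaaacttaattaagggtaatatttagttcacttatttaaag

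At Dlk1 and Meg3 on chromosome 12 CTCF and standard SATB1 shared a site upstream of Dlk1, and urea SATB1 lay inside Meg3. Dlk1 (ENSMUSG00000040856.11, 110691033 to 110701546, plus strand) encodes a paternally expressed transmembrane protein of the Notch ligand family, and Meg3 is the maternally expressed noncoding RNA downstream. The strongest thymocyte CTCF site, 110675883 to 110676568, lay 14.9 kb upstream of Dlk1 with FE of 15.0 in thymocytes and 9.15 in skin, and standard SATB1 had 14.7 and 8.44 (11.6 ± 4.4, SD, n = 2). No urea SATB1 list had a peak there. The Dlk1 window had 6 standard peaks in replicate 1 and 1 in replicate 2, and this site was the one they had in common. The CTCF core match at its centre is in capitals, and the stretch was 25.8% A and T:
Dlk1 upstream CTCF and standard SATB1 site, chr12:110676057-110676188: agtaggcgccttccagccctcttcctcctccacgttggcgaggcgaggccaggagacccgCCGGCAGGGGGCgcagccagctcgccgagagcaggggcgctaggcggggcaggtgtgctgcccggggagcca

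The urea SATB1 site in Meg3 was present in all 6 urea lists, at 110781862 to 110782423 over an annotated exon, 2.91 kb downstream of the gene's 5′ end. Its FE was 22.6 and 23.9 in thymocytes (23.3 ± 0.914, SD, n = 2), 22.9 and 23.1 in brain (23.0 ± 0.0975) and 14.0 and 13.1 in skin (13.6 ± 0.649), with 11.1 on the BUR map. Thymocytes and brain differed by less than the spread of the thymocyte replicates, and both skin values were lower, on a scale that is not shared between lists. The nearest standard SATB1 peak, of replicate 1, lay 0.52 kb away at a site where skin CTCF also had a peak (110781083 to 110781393, FE 5.33 and 4.82). The region 20 kb to 8 kb upstream of Meg3, which holds the germ-line control region, had 0 peaks in every list. The nearest brain urea site, 110758103 to 110758555 (FE 6.33 and 6.63), lay just beyond the far edge of that region. The sequence of the Meg3 site is shown as one of 4 sites that every urea list held, with its longest stretch lacking C, 29 bases, in capitals:
Meg3 urea SATB1 site, chr12:110782020-110782219: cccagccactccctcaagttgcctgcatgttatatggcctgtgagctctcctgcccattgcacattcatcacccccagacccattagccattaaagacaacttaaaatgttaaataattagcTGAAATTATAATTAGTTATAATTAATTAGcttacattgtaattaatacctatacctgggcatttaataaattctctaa

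**Figure D4:**
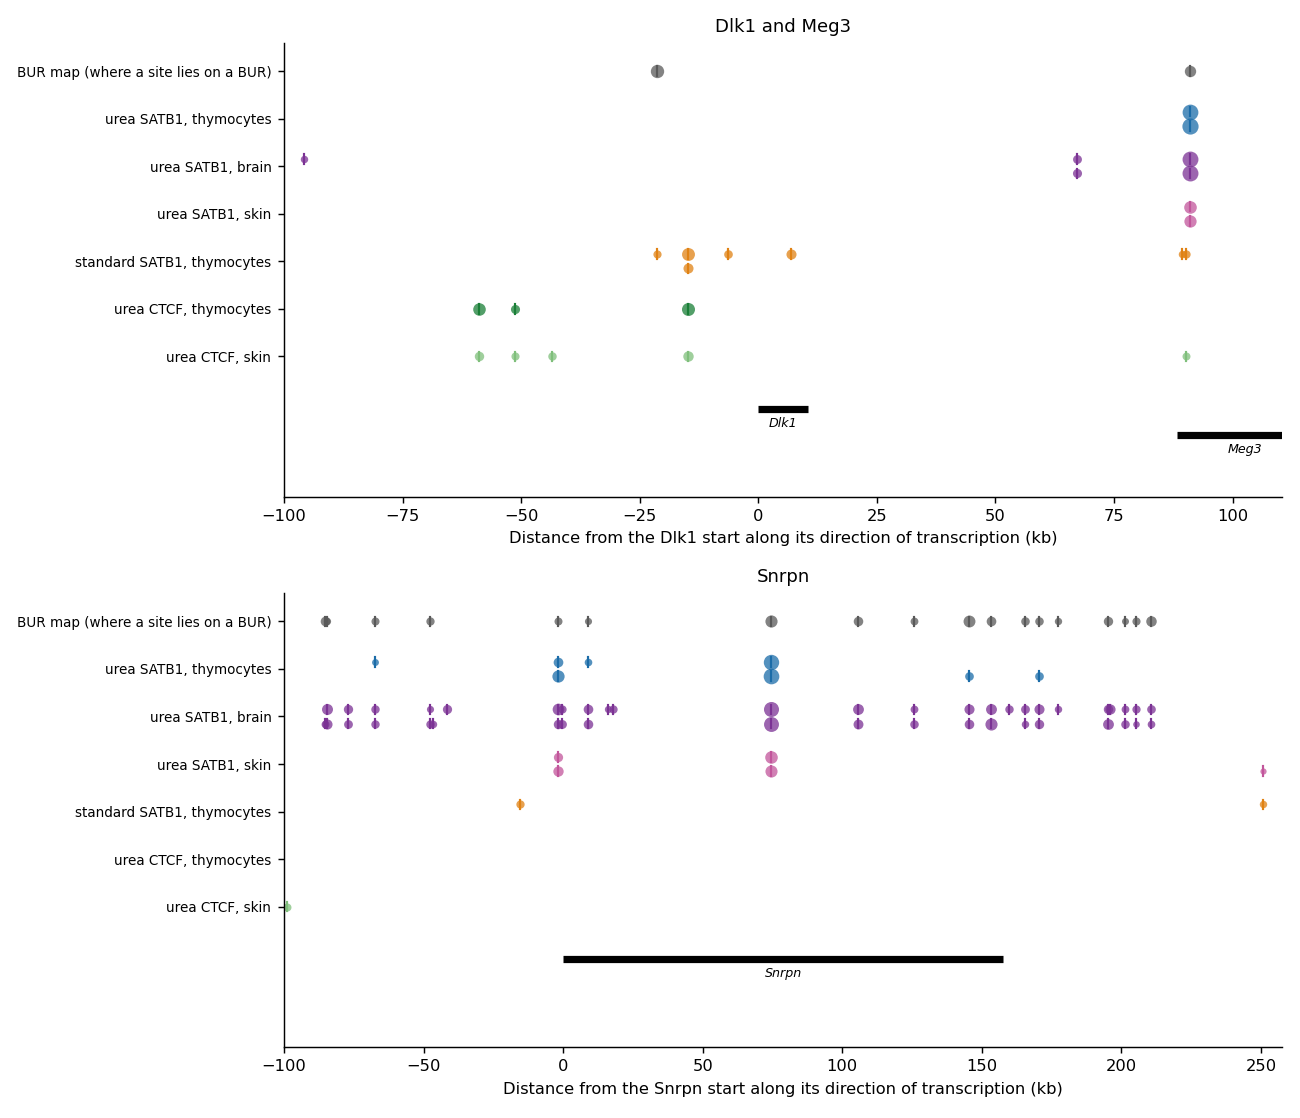
The x axis gives the distance in kb from the Dlk1 start (top) or the Snrpn start (bottom) in the direction of transcription, with rows, dots and bars as in the plot of the H19 and Cdkn1c loci. One site in Meg3 and a pair of sites at Snrpn were held by all 6 urea SATB1 lists, and brain urea SATB1 had 24 and 20 peaks around Snrpn where thymocyte CTCF had 0.

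Igf2r and Airn on chromosome 17 carried the most standard SATB1 peaks of the 10 windows. Igf2r (ENSMUSG00000023830.7, 12875272 to 12962530, minus strand) encodes the maternally expressed receptor that clears IGF2, and Airn is the paternally expressed antisense RNA that starts in an Igf2r intron. The window had 13 standard peaks in replicate 1 and 7 in replicate 2, beside 0 and 1 urea peaks in thymocytes, 2 and 3 in brain, 0 and 1 in skin and 4 and 3 CTCF peaks in thymocytes and skin. Both standard values thus lay above all urea values. Standard counts above both thymocyte urea counts in both replicates were called at 50.0% of all genes. Over all genes the upper quartiles were 12.0 and 7.0 standard peaks in replicates 1 and 2. The start of Airn carried both standard replicates at 12934046 to 12934337, with FE of 6.85 and 3.87 (5.36 ± 2.11, SD, n = 2), and neither urea SATB1, CTCF nor a BUR within 2 kb. The start of Igf2r carried standard replicate 1 (12962528 to 12962804, FE 7.05), and skin urea replicate 2 had a peak just upstream of it (12963378 to 12963610, FE 4.3), both named after their values were seen. The strongest CTCF site, 13003279 to 13003776 in an Airn intron, had FE of 9.22 in thymocytes and 11.6 in skin with standard replicate 1 at 7.99. No site had a urea peak in both thymocyte replicates. The strongest brain site lay in a Slc22a2 intron (12803183 to 12803784, FE 7.86 and 5.97, mean 6.91 ± 1.34, SD, n = 2). The Airn start is shown, with no motif marked, as the control region start where both standard replicates had a peak, and it was 43.5% A and T with 7 CpG dinucleotides:
Airn start, standard SATB1 site, chr17:12934112-12934311: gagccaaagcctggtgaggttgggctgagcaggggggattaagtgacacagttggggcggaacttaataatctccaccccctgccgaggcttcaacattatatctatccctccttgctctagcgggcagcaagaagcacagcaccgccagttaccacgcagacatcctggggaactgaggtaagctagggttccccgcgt

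The Peg3 window had the fewest SATB1 and CTCF peaks over the 10 immunoprecipitated lists. Peg3 (ENSMUSG00000002265.8, chromosome 7, 6656603 to 6683132, minus strand) encodes a paternally expressed zinc finger protein. It had 0 standard SATB1 peaks in both replicates and 0 thymocyte CTCF peaks, 0 and 1 thymocyte urea peaks, 4 and 3 in brain, 0 and 0 in skin and 3 skin CTCF peaks. No list had a peak within 2 kb of its annotated starts. The skin CTCF peak nearest to them lay in a Peg3 intron at 6679887 to 6680642 (FE 6.53), 2.9 kb downstream of a start, and was named after its values were seen. The strongest brain urea site, 6655553 to 6656084 on a BUR, had FE of 9.97 and 11.3 (10.6 ± 0.918, SD, n = 2).

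Snrpn had the most BURs and the most brain urea peaks of the 10 windows. Snrpn (ENSMUSG00000000948.9, chromosome 7, 67127388 to 67285105, minus strand) encodes a paternally expressed splicing protein abundant in neurons, and its annotated 5′ end lies by the control region of the Prader-Willi domain. The window, 358 kb and 62.2% A and T, held 50 BURs, or 140.0 per Mb, beside 9.87 to 55.0 per Mb at the other 9 genes and 87.5 per Mb in the genome. Brain urea SATB1 had 24 and 20 peaks, thymocytes 4 and 4 and skin 2 and 3. Standard SATB1 had 2 and 0, and CTCF 0 in thymocytes and 1 in skin. The replicates of the tissues did not overlap, an order called at 48.6% of all genes. Of the 50 BURs, 18 were bound in each brain replicate, 4 in each thymocyte replicate and 2 in each skin replicate. Over all BURs the shares bound were 37.2% and 34.2% in brain, 14.6% and 12.9% in thymocytes and 3.71% and 3.64% in skin. The brain share at Snrpn was thus near that of the whole lists.

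A pair of Snrpn sites were held by all 6 urea lists. The stronger, 67210183 to 67210973 in a Snrpn intron, 74.4 kb downstream of the 5′ end, had FE of 21.4 and 22.3 in thymocytes (21.9 ± 0.632, SD, n = 2), 20.4 and 20.1 in brain (20.2 ± 0.212) and 13.9 and 12.8 in skin (13.4 ± 0.802). The other, 67286513 to 67287053, lay 1.72 kb upstream of the 5′ end and had 7.74 and 13.1 in thymocytes (10.4 ± 3.77), 11.8 and 7.29 in brain (9.53 ± 3.17) and 6.92 and 9.01 in skin (7.96 ± 1.48), so there the tissues differed by less than the spread between replicates. Both lay on BURs, with FE of 12.9 and 4.88 on the map. A brain site between it and the start, 67285279 to 67285820, had FE of 5.29 and 6.19 and lay on no BUR. No other SATB1 or CTCF peak lay within 2 kb of either annotated start. In the intron site the longest stretch lacking C, 32 bases, is in capitals, and in the upstream site the longest stretch lacking G, 28 bases:
Snrpn intron urea SATB1 site, chr7:67210574-67210773: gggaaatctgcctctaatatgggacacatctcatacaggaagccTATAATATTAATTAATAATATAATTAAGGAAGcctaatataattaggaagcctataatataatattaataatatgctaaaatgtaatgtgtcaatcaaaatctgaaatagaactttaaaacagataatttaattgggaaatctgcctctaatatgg
Snrpn upstream urea SATB1 site, chr7:67286727-67286956: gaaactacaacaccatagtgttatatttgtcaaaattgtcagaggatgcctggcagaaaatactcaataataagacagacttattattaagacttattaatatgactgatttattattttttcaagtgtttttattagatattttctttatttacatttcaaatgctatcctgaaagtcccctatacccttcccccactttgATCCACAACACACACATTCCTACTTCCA

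The intron site was 73.0% and the upstream site 68.7% A and T. The nearest thymocyte CTCF peaks lay 306.0 and 383.0 kb from them, outside the window, and the nearest standard peaks 89.5 and 13.4 kb away.

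**Figure D5:**
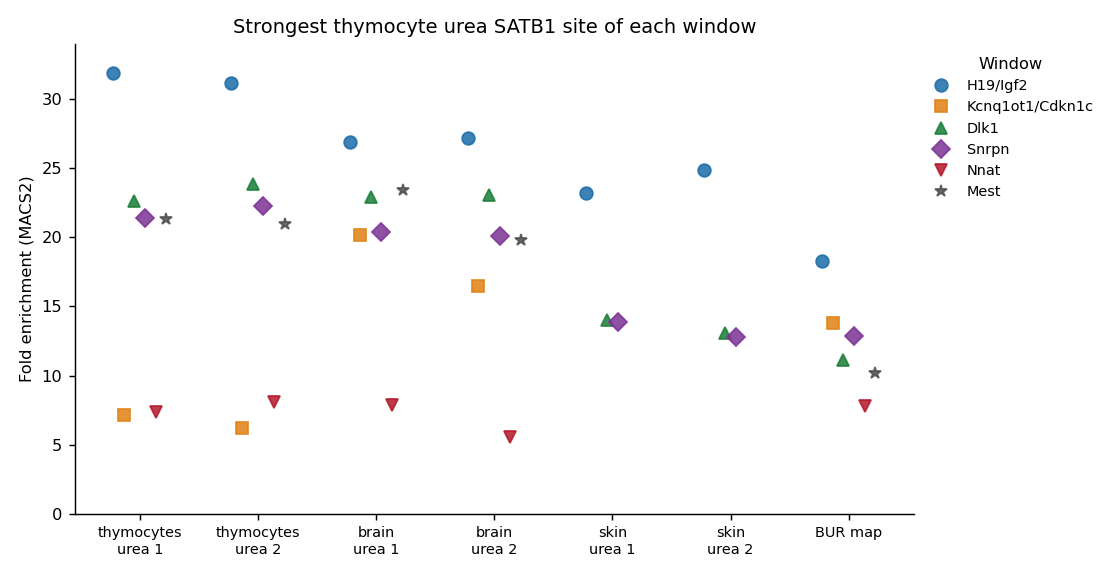
The y axis gives the fold enrichment of the strongest thymocyte urea SATB1 site in each of 6 windows, in each urea SATB1 list and on the BUR map, and a missing marker means no peak in that list. The H19/Igf2 site was the highest in every list (31.9 and 31.2 in thymocytes), the Snrpn and Dlk1 sites were lower in skin (12.8 to 14.0) than in thymocytes and brain, and the Kcnq1ot1/Cdkn1c site was higher in brain (20.2 and 16.5) than in thymocytes (7.11 and 6.24).

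Nnat and Mest held 3 of the 4 sites where a CTCF peak and a urea SATB1 peak met, pooled over cell types. Only at Mest did such peaks overlap within the same cell type, and there is no CTCF list for brain. Nnat (ENSMUSG00000067786.9, chromosome 2, 157385814 to 157388258, plus strand), within an intron of Blcap, encodes the paternally expressed neuronatin. Its window had 2 and 2 urea peaks in thymocytes, 4 and 3 in brain and 0 and 0 in skin, 4 and 1 standard peaks, and 5 and 6 CTCF peaks in thymocytes and skin. No list had a peak within 2 kb of its annotated starts. The strongest CTCF site, 157430700 to 157431263, had FE of 15.8 in thymocytes and 9.46 in skin, with standard replicate 1 at 5.62. At 157461358 to 157462084, CTCF (FE 7.44 and 8.22) met brain urea SATB1 in both replicates (13.0 and 12.8, mean 12.9 ± 0.158, SD, n = 2). Thymocyte urea SATB1 had 4.57 and 5.2 there and overlapped the skin CTCF peak but stopped short of the thymocyte one. The site lay on no BUR. The summits were apart, at 157461552 and 157461622 for CTCF and 157461771 and 157461794 for brain SATB1. The strongest thymocyte urea site on a BUR, 157475603 to 157476072, had FE of 7.37 and 8.06 (7.71 ± 0.491) and lay 0.48 kb from a CTCF peak. The shared site is shown around the CTCF core match, in capitals:
Nnat CTCF and urea SATB1 site, chr2:157461520-157461651: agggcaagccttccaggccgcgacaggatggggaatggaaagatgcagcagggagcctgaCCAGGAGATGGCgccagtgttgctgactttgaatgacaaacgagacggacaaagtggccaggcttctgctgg

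Mest (ENSMUSG00000051855.8, chromosome 6, 30673547 to 30698457, plus strand) encodes a paternally expressed member of the hydrolase fold family. Its window had 3 and 3 urea peaks in thymocytes, 7 and 8 in brain and 2 and 1 in skin, 3 and 4 standard peaks, and 1 and 3 CTCF peaks in thymocytes and skin. The single thymocyte CTCF peak belonged to a site in an intron of the neighbouring gene Copg2 at 30754532 to 30755134 that 7 of the 11 lists shared. There CTCF had FE of 8.58 in thymocytes and 4.28 in skin, standard SATB1 6.81 and 7.53 (7.17 ± 0.515, SD, n = 2), skin urea SATB1 5.24 and 6.3 (5.77 ± 0.748) and thymocyte urea replicate 2 4.8. Thymocyte urea replicate 1, both brain lists and the BUR map had none. It was 45.7% A and T in 300 bases, lower than at any of the named strongest urea SATB1 sites, and held no CTCF core match:
Copg2 intron site of 7 lists, chr6:30754870-30755069: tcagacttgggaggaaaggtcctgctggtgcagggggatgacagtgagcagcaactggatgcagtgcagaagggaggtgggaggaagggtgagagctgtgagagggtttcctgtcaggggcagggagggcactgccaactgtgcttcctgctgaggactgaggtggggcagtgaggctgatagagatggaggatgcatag

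A second shared site in the same gene, 30764990 to 30765427, had skin CTCF (FE 9.51), skin urea replicate 1 (5.45) and standard replicate 2 (25.4), with no peak of the other replicates. Away from CTCF, the strongest thymocyte urea site of the window, 30787349 to 30787871 on a BUR, had FE of 21.3 and 21.0 in thymocytes (21.1 ± 0.175, SD, n = 2) and 23.4 and 19.8 in brain (21.6 ± 2.54). Near the cluster of annotated Mest starts, a skin CTCF peak lay 0.925 kb upstream of one (30687029 to 30687243, FE 4.28), and brain urea SATB1 lay on a BUR 0.321 kb upstream of another (30691543 to 30691890, FE 4.79 and 7.51).

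Across the joined windows the peaks formed 137 sites when overlapping peaks of the CTCF and SATB1 lists were joined. CTCF of either cell type was at 44 sites, standard SATB1 at 45 and urea SATB1 at 68. CTCF and standard SATB1 met at 14 sites, CTCF and urea SATB1 at 4, and standard and urea SATB1 at 5. These counts pool cell types, and such sites were not counted over the whole lists. Of the 4 sites with CTCF and urea SATB1, only those at Mest had an overlap within the same cell type. Urea SATB1 sites were richer in A and T than CTCF or standard SATB1 sites. Sites with urea SATB1 in both thymocyte replicates (11 sites) had a median of 59.3% A and T in 300 bases, those in both brain replicates (40 sites) 69.0%, sites with CTCF 48.7%, and sites with standard SATB1 48.0%, in windows of 54.7% A and T beside 58.2% in the genome. All 11 thymocyte sites were among the 40 brain sites, so these medians do not compare separate sets. Over the whole lists the tissues were close, with medians of 69.0% and 68.7% in the thymocyte replicates and 70.0% and 69.7% in brain. Standard SATB1 peaks lay within 1 kb of an annotated start in 32.5% and 30.4% of cases, beside 31.9% and 39.5% of the whole lists, and thymocyte urea peaks in 6.25% in both replicates, or 1 of 16, beside 2.26% and 2.36%.

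Per Mb, the windows held more CTCF and fewer urea SATB1 peaks than the genome as a whole, which also counts sequence far from genes. CTCF peaks stood at 13.9 and 18.9 per Mb in thymocytes and skin, beside 7.62 and 11.8 per Mb, while per gene the median among the 10 was 3.5 and 4.0, beside 3.0 and 4.0 over the windows of all genes. The ratio of the windows' urea SATB1 density to the genome's was 0.437 and 0.506 in thymocytes, 0.551 and 0.562 in brain and 0.781 and 0.808 in skin, the last from 7 peaks in each list. Thymocyte urea SATB1 stood at 7.39 per Mb in both replicates, beside 16.9 and 14.6, and BURs at 52.2 per Mb, beside 87.5 in the genome and a median of 49.7 over the windows of all genes. In CTCF peaks per gene the imprinted windows thus lay near the median of gene windows. The BUR density of 52.2 per Mb pooled the 8 windows, and the Snrpn window held 50 of the 113 BURs. Per gene the median among the 10 was 8.0 BURs, beside 11.0 over the windows of all genes. The median distance from a thymocyte urea peak to the nearest thymocyte CTCF peak was 49.3 and 49.4 kb in the windows, beside 248.0 and 243.0 kb over every 10th peak of the whole lists, and to the nearest standard replicate 1 peak 22.8 and 22.8 kb, beside 103.0 and 98.4 kb. The whole lists include peaks far from genes, and no distance over the windows of all genes was computed. These distances therefore cannot set imprinted genes apart from other genes. Peaks of Satb1-deficient thymocytes were not analysed here, so which standard peaks depend on SATB1 was not tested.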

How the data were processed

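Peak lists of 11 samples were analysed. The authors checked reads with FastQC, mapped them to NCBI37/mm9 with bowtie2 2.3.1, allowing 3 mismatches in the seed and unique matches only, and called peaks per sample with MACS2 2.2.7 at q 0.01. Each deposited list gives a display score (not used), the peak's fold enrichment, a ratio over the local background of its own sample, and the −log10 p and −log10 q of each peak within its list. The use of an input in peak calling is not given in the sources used here. The authors' lists hold no counts, so depth is unknown and the precision is that of 2 replicates; CTCF and the BUR map have 1 list each. Replicates are separate samples of the series, and their spread may be technical. Labels number thymocyte urea replicates 1 and 2, and the study's supplementary tables number them the other way round.

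Overlaps (at least 1 bp) and counts by summit were computed with Python 3.11.15 and numpy, sequences read with pysam from NCBIM37, genes taken from GENCODE vM1, and intervals are exact binomial (scipy). Overlap and window counts matched a brute-force count on simulated intervals. No test across genes was made. Replicates of 2 groups were called different when they did not overlap, set beside the share of all genes called. The named sites were the 10 genes' strongest thymocyte CTCF site per joined window, the strongest urea SATB1 site in both thymocyte replicates (else brain), every site in a control region (5 kb upstream of H19, 20 kb to 8 kb upstream of Meg3, 2 kb around the starts of Kcnq1ot1, Peg3, Snrpn, Nnat, Mest and Airn) and sites where CTCF met urea SATB1. The 10 genes, the 41 further imprinted genes and these rules were chosen with earlier results of these data known. The alternatives were −log10 q of at least 5, summits inside peaks, flanks of 50 kb, lists of equal size, removal of regions held by all 11 lists and each replicate left out. The Snrpn window was left out as an alternative chosen after seeing the data.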

Additional observations from a re-analysis of the deposited data

How the results depend on the processing

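No paired analysis was possible because no result comes from a test. Of 101 alternatives, 75 left a value within the spread between replicates (a count within 1.5 times) and 26 did not, and the cause was not tested. With flanks of 50 kb, skin CTCF overlapped by skin urea SATB1 came to 0%, or 0 of 23 peaks in each replicate, beside 4.0% and 3.61% of the whole list. BURs bound came to 7.35% in thymocytes, 30.1% in brain and 2.94% in skin. The genes counted came to 2 for CTCF with both standard replicates, 0 for CTCF with urea SATB1 in thymocytes and 0 in skin. They came to 2 for the order of brain, thymocytes and skin, and 5 for more standard than urea peaks. With lists of equal size, thymocyte CTCF shared with skin came to 66.7%, beside 62.9% of the whole list. BURs bound came to 3.98% in thymocytes, beside 4.25% and 4.24% of all BURs, and 3.98% in brain, beside 4.59% and 4.56%. The whole-list shares thus fell at equal sizes as well. The genes came to 2 for CTCF with both standard replicates, 0 for CTCF with thymocyte urea SATB1 and 0 for the order of tissues. Requiring a summit inside the peak gave BURs bound of 8.41% in thymocytes and 26.5% in brain, and a −log10 q of at least 5 gave 30.0% in brain and 3.64% in skin. Without the Snrpn window, chosen after seeing the data, BURs bound were 11.1% in thymocytes, 25.4% in brain and 3.17% in skin. Leaving out 1 replicate at a time gave 5 to 7 genes for CTCF with standard SATB1, 0 to 1 for CTCF with thymocyte urea SATB1 and 3 to 5 for more standard than urea peaks. Skin and brain BUR shares had no spread between replicates, so any change there counted as a move. The shares of all genes called are not given for these alternatives, so a changed gene count cannot be set against a background. The lists hold no reads, so depth could not be weighed.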
